A study of Mus musculus with 7 samples.

Results

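Growth factors that act on hepatocytes, and receptors of such factors, were followed in mouse spleens that had received hepatocytes, the main cells of the liver. The members were taken by symbol from the deposited FPKM table (fragments per unit of transcript length and of library depth): the ligand genes Hgf, Tgfa, Hbegf, Areg, Wnt2 and Rspo3, and the receptor genes Met, Egfr, Fgfr4 and Il6ra. All 10 were found among the 22173 genes of the table. There were 3 spleen libraries in the PBS group, given phosphate-buffered saline, and 4 in the sHA-X group. The spleens of the sHA-X group had been remodelled by 4 injections of the biomaterial sHA-X. Hepatocytes were injected into the spleens of both groups, and the tissue was taken 30 days later. Strain, age, sex, genotype and the source of the hepatocytes are not given in the sources used here, and the labels do not tie libraries to animals; the p-values therefore speak only to the spread among these libraries. The stated purpose was to see whether a spleen so treated can take in liver cells and how it then differs in genes of liver function.

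Hepatocyte growth factor (HGF) is released by mesenchymal and endothelial cells as an inactive chain, is cut by proteases and then acts through the receptor tyrosine kinase MET on hepatocytes. The epidermal growth factor receptor (EGFR) is a second mitogen receptor of hepatocytes, and TGF-alpha, HB-EGF and amphiregulin are ligands of it that are shed from the cell surface. In the liver, endothelial WNT2 and R-spondin 3 keep WNT signalling active in the hepatocytes around the central vein, FGFR4 receives the bile acid signal FGF15, and the interleukin-6 receptor chain IL6RA passes the acute phase signal through gp130 and STAT3.

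Reads recovered from the steps of the values (up to a common factor) summed to between 29543963 and 37142126 per library, over the genes recovered. B cell markers, abundant in spleen, were checked against the tissue label, and each was at 21.5 FPKM or more in every library. Some libraries stood apart. Pancreatic acinar genes summed to 1136 FPKM in PBS replicate 2 and to between 15.4 and 35.2 FPKM elsewhere, and skeletal muscle genes to 215.8 FPKM in sHA-X replicate 2 and to at most 10.6 FPKM elsewhere. The hepatocyte gene Alb (albumin) ran from 0.271 to 4.10 FPKM in PBS, while sHA-X replicates 1 and 2 had 2.17 and 8.49 FPKM and replicates 3 and 4 had 325.3 and 370.4 FPKM. In bulk tissue, fewer cells of a type and less RNA per cell cannot be told apart.

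In level, Il6ra stood far above the other members. Its mean over the 7 libraries was 24.8 FPKM, followed by Met at 4.77, Hgf at 3.40, Hbegf at 2.70, Fgfr4 at 1.75, Wnt2 at 1.21, Egfr at 1.09, Rspo3 at 0.893, Tgfa at 0.589 and Areg at 0.0398 FPKM. Il6ra was above Met, and Met above Hgf, in 7 of 7 libraries with no overlap of their ranges in either group. The ranges of Hgf and Hbegf overlapped in both groups, although Hgf was the higher of the pair in each library. Wnt2, Egfr and Rspo3 were neighbours whose order was not fixed: Wnt2 was above Egfr in 5 of 7 libraries and Egfr above Rspo3 in 5 of 7.

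**Figure D1:**
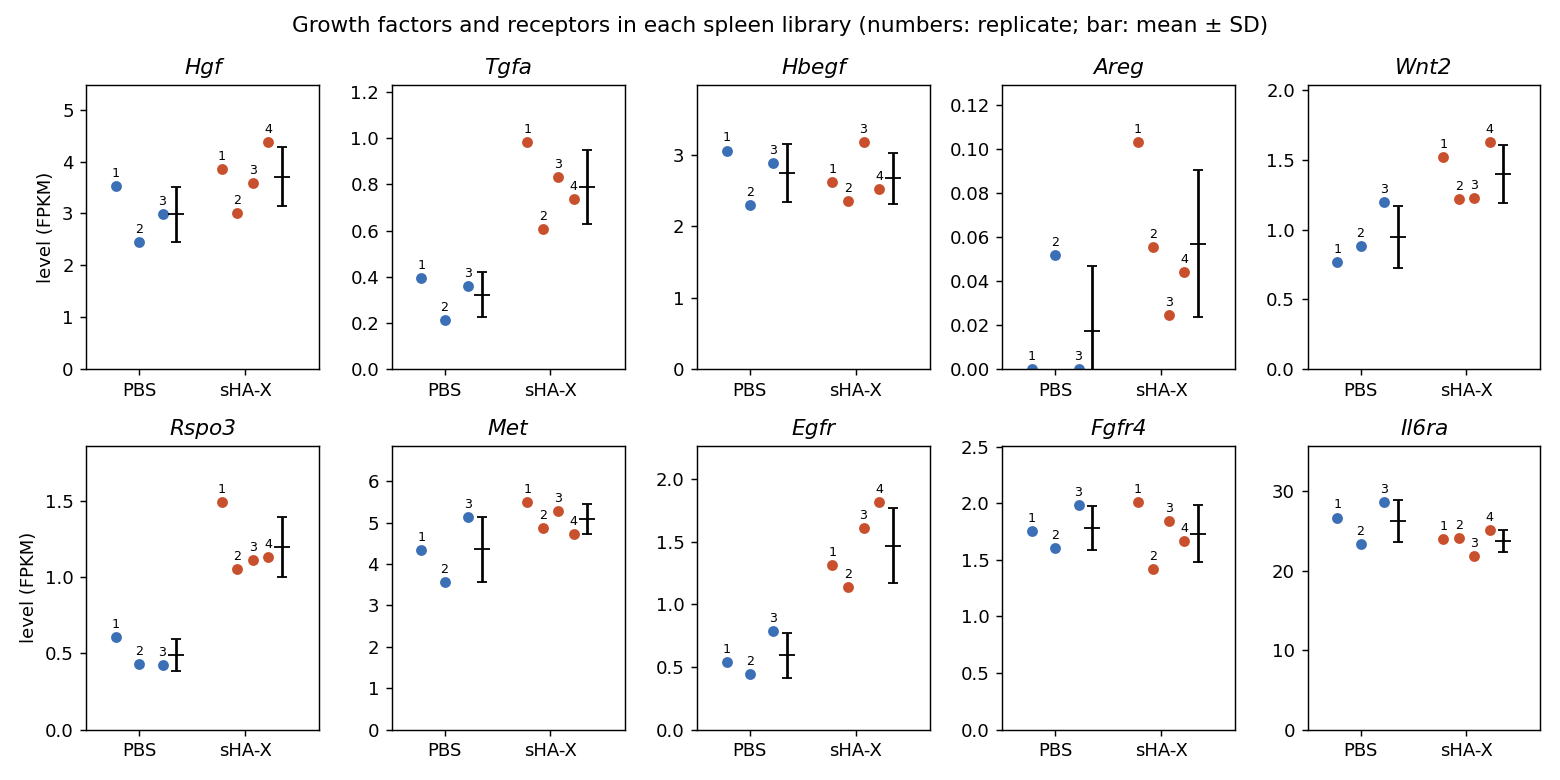
Level of each growth factor (Hgf, Tgfa, Hbegf, Areg, Wnt2, Rspo3) and receptor (Met, Egfr, Fgfr4, Il6ra) in FPKM on linear axes from 0; points are libraries numbered by replicate, bars the mean ± SD of 3 PBS and 4 sHA-X libraries. For Egfr, Tgfa, Rspo3 and Wnt2 each sHA-X point lies above each PBS point; for the other 6 genes the groups overlap.

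The test was limma on log2(FPKM + 1), and a gene was called at a Benjamini-Hochberg adjusted p under 0.05 over all genes tested. The test was limited to genes with a mean of at least 1 FPKM, which kept 7 members and left out Rspo3, Tgfa and Areg. Of these 7, 1 was called higher in sHA-X (Egfr), none lower (also none at an unadjusted p under 0.05) and 6 did not pass, where 9.3% of 11920 genes tested were called higher, 5.03% lower and 14.3% in either direction. Egfr and Wnt2 passed the filter only through their sHA-X values. A fit with no filter, planned as an alternative, tested all 10 members. It called 3 of them higher (Egfr, Rspo3 and Tgfa), where of 17593 genes 5.84% were called higher, 3.17% lower and 9.01% in either direction. A further fit on recovered reads, scaled to library size and at least 10 on average, tested 9 members and called these 3, where of 14479 genes 8.55% were called higher, 4.9% lower and 13.4% in either direction. Each sHA-X library was above each PBS library for 4 of the 10 members, as it was for 14.6% of 17593 genes above 0 in any library and 17.2% of those that passed the filter.

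Egfr (NCBI gene 13649, chromosome 11, 16752203 to 16913907 in GRCm38) had levels of 0.543, 0.444 and 0.789 FPKM in the PBS libraries. In the sHA-X libraries it had levels of 1.31, 1.14, 1.61 and 1.81 FPKM. Levels, here and below, are given in order of replicate. The groups did not overlap; the lowest sHA-X library was replicate 2 and the highest PBS library replicate 3. These levels rested on 122 to 227 reads per PBS library and 290 to 581 per sHA-X library. The means were 0.592 ± 0.178 FPKM (SD, n = 3) and 1.47 ± 0.301 FPKM (SD, n = 4), a ratio of 2.48. The log2(FPKM + 1) difference, which understates the change of a gene this low, was 0.63 (SE 0.12, adjusted p = 0.013 by limma). On the scale of recovered reads it was 1.24 (SE 0.21, adjusted p = 0.0049 by limma). Leaving out PBS replicate 1 ended the call (adjusted p = 0.061 by limma), and without sHA-X replicate 4 Egfr fell under the filter. With no filter the adjusted p was 0.023, and the call was lost when any of PBS replicates 1 and 2 and sHA-X replicates 3 and 4 was left out (0.053 to 0.093 by limma).

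Tgfa (NCBI gene 21802, chromosome 6, 86195038 to 86275744), a ligand of EGFR, had PBS levels of 0.394, 0.211 and 0.360 FPKM and sHA-X levels of 0.985, 0.605, 0.833 and 0.736 FPKM. Again no sHA-X library was as low as any PBS library. Its means were 0.322 ± 0.097 FPKM (SD, n = 3) and 0.790 ± 0.160 FPKM (SD, n = 4), a ratio of 2.46, on 149 reads over the PBS libraries and 496 over the sHA-X libraries. With no filter the log2(FPKM + 1) difference was 0.44 (SE 0.09, adjusted p = 0.027 by limma), and on recovered reads 1.08 (SE 0.22, adjusted p = 0.013 by limma). The call with no filter was lost when any of PBS replicates 1 and 2 and sHA-X replicates 1, 3 and 4 was left out (adjusted p = 0.051 to 0.079 by limma).

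Rspo3 (NCBI gene 72780, chromosome 10, 29453106 to 29535867), the secreted amplifier of WNT signalling, had PBS levels of 0.609, 0.431 and 0.424 FPKM and sHA-X levels of 1.49, 1.05, 1.11 and 1.13 FPKM. Replicate 1 was the highest in each group, and the groups were apart. The means were 0.488 ± 0.105 FPKM (SD, n = 3) and 1.196 ± 0.198 FPKM (SD, n = 4), a ratio of 2.45, with 33 to 47 reads per PBS library and 75 to 114 per sHA-X library. With no filter the log2(FPKM + 1) difference was 0.56 (SE 0.09, adjusted p = 0.013 by limma), and the call held in all 7 fits that left out 1 library (adjusted p up to 0.047). Without the second library of each group, those with acinar and muscle RNA, the fit with no filter gave an adjusted p of 0.074 for Rspo3, 0.070 for Egfr and 0.067 for Tgfa by limma, with differences of 0.56, 0.63 and 0.43. An antisense gene, Gm48159, overlaps exons of Rspo3, and Gm43917 overlaps those of Tgfa on the other strand. The sources used here do not state strandedness, and reads of these pairs cannot be told apart.

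The promoters of a receptor and its ligand that were both called with no filter, Egfr and Tgfa, are shown beside those of Met and Fgfr4, receptors that did not pass. Each is a 300-base RefSeq window of GRCm38.p6, 250 bases before to 50 after an annotated start, written 5′ to 3′ on the strand of the gene. RefSeq windows were matched for 8 of the 10 members, and Rspo3 and Hbegf are named only. Capitals mark matches on either strand to the GC box GGGCGG, the SMAD box CAGAC, the AP-1 site TGANTCA and the TATA box TATAAA.
Egfr, chr11:16751953-16752252, plus strand: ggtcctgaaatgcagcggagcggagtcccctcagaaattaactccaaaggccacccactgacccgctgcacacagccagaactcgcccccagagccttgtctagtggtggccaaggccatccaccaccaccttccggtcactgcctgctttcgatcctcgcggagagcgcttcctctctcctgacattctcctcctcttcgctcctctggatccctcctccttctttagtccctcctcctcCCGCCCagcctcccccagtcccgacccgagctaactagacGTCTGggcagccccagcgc
Tgfa, chr6:86194972-86195271, plus strand: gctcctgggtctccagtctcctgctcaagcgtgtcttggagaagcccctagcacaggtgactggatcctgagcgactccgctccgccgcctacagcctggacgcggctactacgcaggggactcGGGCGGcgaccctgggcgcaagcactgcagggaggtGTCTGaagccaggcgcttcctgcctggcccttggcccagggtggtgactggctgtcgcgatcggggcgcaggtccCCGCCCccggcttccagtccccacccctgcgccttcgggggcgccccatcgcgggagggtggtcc
Met, chr6:17463707-17464006, plus strand: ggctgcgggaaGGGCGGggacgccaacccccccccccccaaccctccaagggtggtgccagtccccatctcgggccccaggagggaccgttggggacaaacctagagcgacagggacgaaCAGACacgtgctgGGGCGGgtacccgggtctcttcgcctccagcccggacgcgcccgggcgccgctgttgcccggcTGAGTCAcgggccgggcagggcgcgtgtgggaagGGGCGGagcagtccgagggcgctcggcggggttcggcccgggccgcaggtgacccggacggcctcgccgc
Fgfr4, chr13:55152568-55152867, plus strand: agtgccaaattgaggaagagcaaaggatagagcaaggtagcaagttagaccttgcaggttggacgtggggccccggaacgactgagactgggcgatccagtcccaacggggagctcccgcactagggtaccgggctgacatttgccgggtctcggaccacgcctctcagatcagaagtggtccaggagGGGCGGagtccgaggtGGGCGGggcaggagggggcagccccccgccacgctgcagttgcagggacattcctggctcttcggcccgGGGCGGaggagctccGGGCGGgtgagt
The Egfr window held 1 GC box and 1 SMAD box. That of Tgfa held 2 GC boxes and 1 SMAD box, and that of Met 3 GC boxes, 1 SMAD box and 1 AP-1 site. The Fgfr4 window held 4 GC boxes and none of the other motifs. Over 32851 RefSeq promoter windows of this length, 35.7% held a GC box, 49.6% a SMAD box, 7.81% an AP-1 site and 13.6% a TATA box, so GC and SMAD boxes are common in any such window. No TATA box letters were found in these 4 windows. GC content was 62.3% for Egfr, 70.7% for Tgfa, 75.7% for Met and 65.3% for Fgfr4.

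Hgf (NCBI gene 15234, chromosome 5, 16553495 to 16619439 in GRCm38), the ligand of MET, had PBS levels of 3.52, 2.45 and 2.98 FPKM and sHA-X levels of 3.85, 3.01, 3.60 and 4.38 FPKM. The groups overlapped, with PBS replicate 1 above sHA-X replicate 2. The log2(FPKM + 1) difference was 0.24 with a 95% interval of -0.04 to 0.53 (adjusted p = 0.24 by limma). Wnt2 (NCBI gene 22413, chromosome 6, 17985474 to 18032772), the endothelial WNT ligand, had PBS levels of 0.767, 0.883 and 1.20 FPKM and sHA-X levels of 1.52, 1.22, 1.23 and 1.63 FPKM. The highest PBS library and the lowest sHA-X library were nearly level. The difference of 0.30 had a 95% interval of 0.05 to 0.55 before adjustment, and an adjusted p of 0.10 by limma (0.0502 to 0.32 over the fits that left out 1 library).

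Hbegf (NCBI gene 15200, chromosome 18, 36504927 to 36515805 in GRCm38), the most abundant EGFR ligand gene in these spleens, had PBS levels of 3.06, 2.29 and 2.88 FPKM and sHA-X levels of 2.62, 2.36, 3.19 and 2.53 FPKM. The groups covered the same range, and the difference was -0.03 (95% interval -0.27 to 0.22, adjusted p = 0.90 by limma). Areg (NCBI gene 11839, chromosome 5, 91139599 to 91148432), the amphiregulin gene, was at or near 0: 0, 2 and 0 reads in PBS replicates 1 to 3, and 4, 2, 1 and 2 reads in sHA-X replicates 1 to 4. A count of 0 allows up to 3 reads, which is 0.0767 FPKM in PBS replicate 1, so no fold is given, and this limit covers counting error only. Summed over libraries, there were 2 Areg reads in PBS and 9 in sHA-X.

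Among the receptors, Met (NCBI gene 17295, chromosome 6, 17463349 to 17573980 in GRCm38) had PBS levels of 4.35, 3.57 and 5.14 FPKM and sHA-X levels of 5.49, 4.86, 5.28 and 4.72 FPKM. PBS replicate 3 reached into the sHA-X range, while the other PBS libraries lay below it. The difference was 0.19 with a 95% interval of -0.05 to 0.44 (adjusted p = 0.26 by limma). Fgfr4 (NCBI gene 14186, chromosome 13, 55152818 to 55168759) had PBS levels of 1.75, 1.60 and 1.99 FPKM and sHA-X levels of 2.01, 1.42, 1.84 and 1.66 FPKM. Its lowest and highest values were both in the sHA-X group, and the difference was -0.03 (95% interval -0.25 to 0.20, adjusted p = 0.89 by limma). Il6ra (NCBI gene 16194, chromosome 3, 89869324 to 89913196) had PBS levels of 26.7, 23.4 and 28.6 FPKM and sHA-X levels of 24.0, 24.1, 21.9 and 25.1 FPKM. The sHA-X libraries lay in the lower part of the PBS range or below it, with a difference of -0.13 (95% interval -0.31 to 0.05, adjusted p = 0.30 by limma). The antisense gene Gm42809 overlaps exons of Il6ra, and Gm43489 those of Hgf on the same strand.

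**Figure D2:**
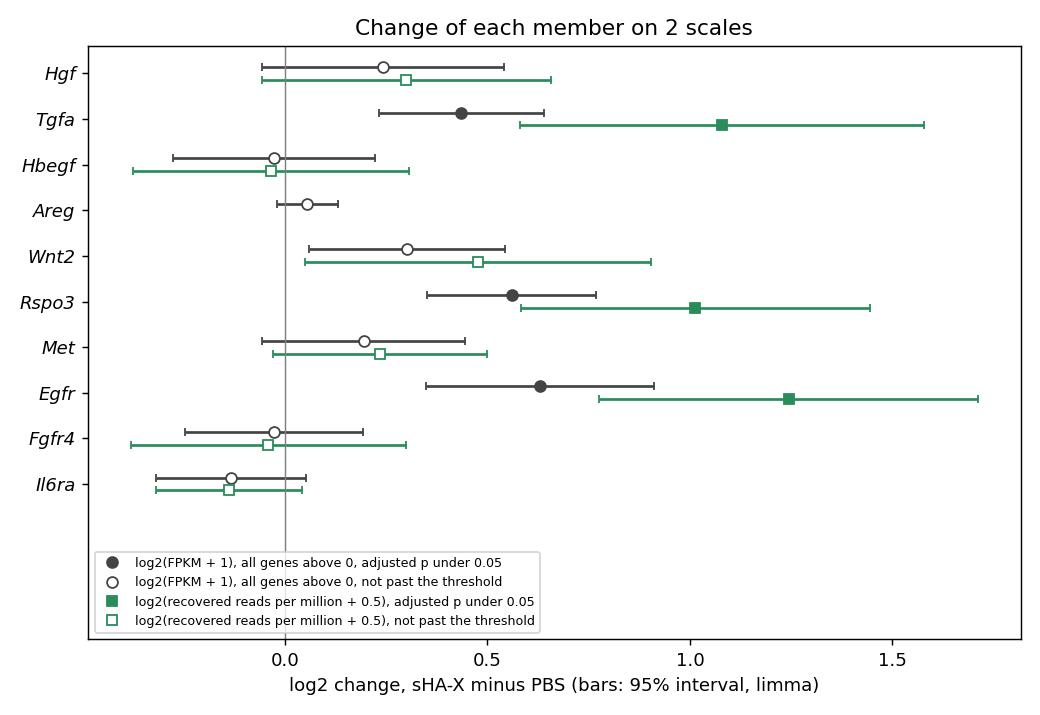
Log2 change of each member, sHA-X minus PBS, with 95% intervals from limma on 2 scales: log2(FPKM + 1) over all genes above 0 (circles) and log2 of recovered reads scaled to library size, with 0.5 added (squares, no value for Areg). Filled symbols have an adjusted p under 0.05: Egfr, Rspo3 and Tgfa on both scales, at 0.63, 0.56 and 0.44 on the first and 1.24, 1.01 and 1.08 on the second.

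The 3 members called with no filter were compared in how they varied among libraries. Over the 7 libraries, Pearson's r of log2(FPKM + 1) was 0.96 for Tgfa with Rspo3, 0.88 for Egfr with Tgfa and 0.83 for Egfr with Rspo3. These are descriptions over 7 points that share the group difference and other differences among the libraries. Among the 11913 tested genes that are not members, those most like Egfr were Mrpl42 (r = 0.995), Serpina3g (0.991) and Tomm70a (0.990). Those most like Rspo3 were Fcrls (0.991), the matrix metalloproteinase gene Mmp2 (0.991) and the matrix protein gene Fbln2 (0.990). Fcrls passed the filter only through its sHA-X values. Those most like Tgfa were Trafd1 (0.990), the collagen gene Col1a2 (0.989) and Tmem26 (0.989). PBS replicate 2 was the lowest PBS library for 7 of the 10 members, where it was the lowest for 43.6% of all genes tested. In sHA-X, replicate 2 was the lowest for 7 of 10, against 19.7% of the genes tested. Both shares cover genes with a mean of at least 1 FPKM, a set without Rspo3, Tgfa and Areg.

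Markers of some other cells moved with the same groups. The 12 fibroblast and stellate cell markers summed to between 183.0 and 239.2 FPKM in PBS and between 412.6 and 590.4 FPKM in sHA-X, with 7 of 12 called higher and none of the list at 0 in any library. The sum was highest in sHA-X replicate 1, the library in which Rspo3, Tgfa, Met, Areg and Fgfr4 were also highest. These were 5 of 10 members, and the Areg value rested on 4 reads. Within sHA-X, replicate 1 was the highest for 22.2% of genes with a mean of at least 1 FPKM. Egfr was highest in sHA-X replicate 4, where the sum was the lowest of that group. Macrophage markers summed to between 1308 and 1671 FPKM in PBS and between 2437 and 2671 FPKM in sHA-X (10 of 12 called higher). Endothelial sums overlapped, at 224.6 to 287.8 FPKM with PBS and 280.5 to 340.4 FPKM with sHA-X (4 of 12 called higher). Neutrophil and monocyte markers summed to between 1738 and 2777 FPKM with PBS and between 3064 and 4550 FPKM with sHA-X (4 of 10 called higher), and mast cell and basophil markers to between 21.9 and 25.2 FPKM with PBS and between 31.2 and 35.8 FPKM with sHA-X (6 of 8 called higher). B cell markers summed to between 1843 and 2206 FPKM in PBS and between 1256 and 1443 FPKM in sHA-X (8 of 10 called lower). T cell sums overlapped, at 240.5 to 332.7 FPKM in PBS and 203.9 to 248.8 FPKM in sHA-X (1 of 10 called lower). So did mesothelial sums (13.9 to 25.7 and 8.76 to 43.5 FPKM) and adipocyte sums (7.74 to 23.9 and 20.3 to 100.7 FPKM), with no gene called. Of all genes tested, 9.3% were called higher and 5.03% lower. The part of the marker shifts in the member levels was not tested. Hepatocyte markers summed to between 2.19 and 9.87 FPKM in PBS and, in the order of the sHA-X replicates, to 6.86, 24.2, 862.1 and 879.8 FPKM, and none of 11 tested was called by limma (0 also at an unadjusted p under 0.05). Fgb, Cyp3a11, Cps1 and Tat of this list were at 0 in at least 1 library. In sHA-X replicates 1 and 2, where Alb was 2.17 and 8.49 FPKM, Egfr was 1.31 and 1.14 FPKM, above the highest PBS value of 0.789. In replicates 3 and 4, where Alb was 325.3 and 370.4 FPKM, Egfr was 1.61 and 1.81 FPKM.

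**Figure D3:**
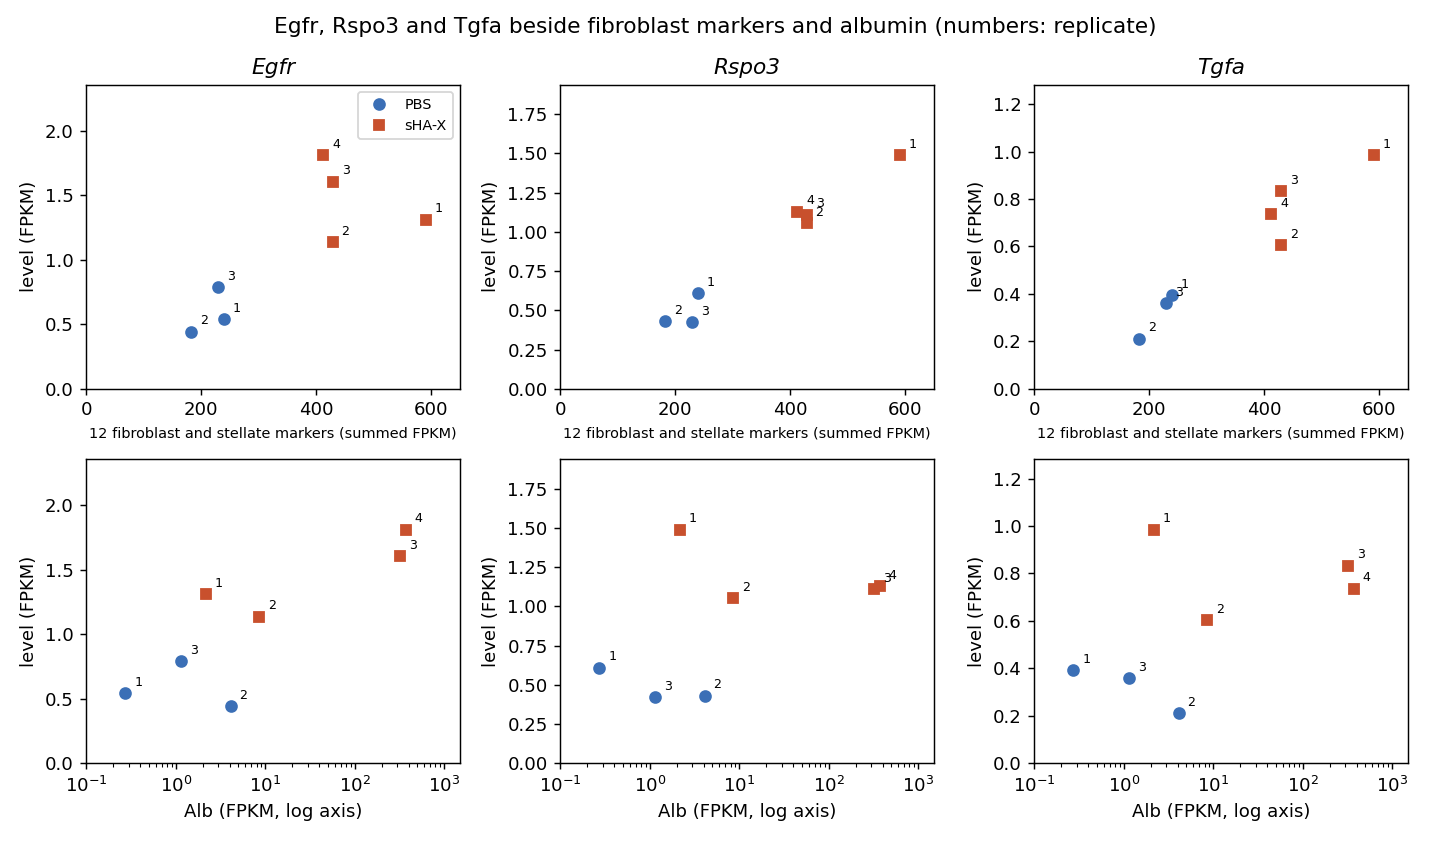
Level of Egfr, Rspo3 and Tgfa (FPKM, vertical) in each library against the summed FPKM of 12 fibroblast and stellate cell markers (upper row) and against Alb (lower row, log axis); circles are PBS, squares sHA-X, numbers the replicate. The sHA-X libraries lie above the PBS libraries for all 3 genes, also those with Alb of 2.17 and 8.49 FPKM.

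The other genes of each signalling arm were read from 7 lists that held 105 genes of the table, members included. Of the 64 tested, 18 rose (28.1%), none fell by limma (4 were lower and 27 higher at an unadjusted p under 0.05) and 46 did not pass, where 9.3% of all genes tested were called higher and 5.03% lower. The lists were chosen with earlier results of these data known, so these counts do not test the lists. Egfr, Plat, Fgf7 and Sfrp2 passed the filter only through their sHA-X values. With no filter, 19 of 102 list genes were called higher, where 5.84% of all genes were. The counts of the single lists below are small and are to be read against the same shares. The median log2(FPKM + 1) difference of the 64 was 0.17, beside 0.03 for all genes tested. With median-of-ratios scaling 17 rose and 3 fell (Fgfr3, Fgf1 and Cbl), and 64.9% of all calls were higher without and 54.3% with that scaling. Without PBS replicate 1, 10 rose, and 11 without both second libraries. Without sHA-X replicate 2, Fgfr3 and Fgf1 fell.

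In the HGF and MET arm, 3 of 12 tested genes rose, all in the plasminogen activator system, whose proteases can cut pro-HGF. Plat, tissue plasminogen activator, went from 0.929 ± 0.239 FPKM (SD, n = 3) to 3.15 ± 0.653 FPKM (SD, n = 4), a log2(FPKM + 1) difference of 1.10 (SE 0.15, adjusted p = 0.0027 by limma). Plat passed the filter only through its sHA-X values. Plau, urokinase, rose from 3.39 ± 0.493 to 5.17 ± 0.994 FPKM (adjusted p = 0.042), and its receptor Plaur from 18.3 ± 1.15 to 22.5 ± 1.67 FPKM (adjusted p = 0.035). Plau and Plaur were not called with no filter (0.072 and 0.053). On recovered reads, Gab1 of this list was called higher as well. The call of Plau was lost without any 1 of the 7 libraries (adjusted p up to 0.12 by limma), and that of Plaur when any of PBS replicates 1 and 2 and sHA-X replicates 1 to 3 was left out (up to 0.14). The phosphatase gene Ptpn11, the most abundant of the list, averaged 33.6 ± 0.158 FPKM in the PBS group and 34.0 ± 0.566 FPKM in the other. Of the proteases that activate HGF, chosen here after their values were seen, Hpn did not pass and Hgfac was under the filter. Hpn had sHA-X levels of 8.75, 5.78, 11.2 and 8.99 FPKM and PBS levels of 3.57, 5.88 and 2.20 FPKM (adjusted p = 0.074 by limma). Hpn was called higher without PBS replicate 2 (difference 1.31, adjusted p = 0.036 by limma) and without both second libraries (1.47, adjusted p = 0.013). Hgfac exceeded 1 FPKM only in sHA-X replicates 3 and 4 (1.02 and 1.37 FPKM).

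In the ERBB family, 2 of 4 tested genes rose, Egfr and Erbb2, the partner receptor that binds no ligand of its own. Erbb2 had PBS levels of 1.42, 1.19 and 1.20 FPKM and sHA-X levels of 2.18, 2.14, 1.90 and 1.91 FPKM. The groups were apart, with means of 1.27 ± 0.130 FPKM (SD, n = 3) and 2.03 ± 0.147 FPKM (SD, n = 4) and a difference of 0.42 (SE 0.08, adjusted p = 0.013 by limma). The call held in all 7 fits without 1 library and was lost without both second libraries (adjusted p = 0.083). Erbb3 averaged 1.21 ± 0.168 FPKM with PBS, against 1.29 ± 0.346 FPKM with sHA-X (limma adjusted p = 0.87), and Erbb4 was listed at 0 in all 7 libraries. The other ligand genes were low, with Egf at most 0.463 FPKM and Btc at most 0.509 FPKM. Of the 9 tested genes for ligand shedding and feedback, 1 rose: Rhbdf1, whose iRhom protein guides the sheddase ADAM17, from 1.80 ± 0.236 to 2.83 ± 0.380 FPKM (adjusted p = 0.023 by limma). This call was lost when the first or second library of either group was left out (up to 0.092), and 1 of 9 is near the 9.3% of all genes called higher. The sheddase genes Adam10, the most abundant of the list, and Adam17 did not pass (adjusted p = 0.55 and 0.91), nor did the EGFR feedback inhibitor gene Errfi1 (0.36).

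In the FGF family, 2 of 6 tested genes rose. Fgf7, a ligand that mesenchymal cells make for epithelia, went from 0.407 ± 0.186 FPKM (SD, n = 3) to 1.82 ± 0.399 FPKM (SD, n = 4), a difference of 1.002 (SE 0.14, adjusted p = 0.0031 by limma). Fgf7 passed the filter only through its sHA-X values. The receptor gene Fgfr1, the most abundant of the list, rose from 4.13 ± 0.636 to 7.01 ± 0.694 FPKM (adjusted p = 0.0060). Both calls held in all 7 fits without 1 library. Fgfr3 was 4.52 ± 0.342 and 3.39 ± 0.457 FPKM (adjusted p = 0.054), and it was called lower on recovered reads (adjusted p = 0.048). Fgf1 was 2.11 ± 0.103 and 1.58 ± 0.221 FPKM (adjusted p = 0.077) and was also called lower on recovered reads (log2 difference -0.42, adjusted p = 0.028 by limma). Fgf15, the gut ligand of FGFR4, was listed at 0 in all 7 libraries, and Klb, which encodes the co-receptor, was at most 0.0797 FPKM.

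In the WNT and R-spondin arm, 5 of 16 tested genes rose, among them 3 for secreted WNT antagonists or related proteins. Sfrp2 had PBS levels of 0.124, 0.0469 and 0.0896 FPKM and sHA-X levels of 4.85, 4.19, 4.05 and 3.14 FPKM, with no overlap. Sfrp2 passed the filter only through its sHA-X values. Its difference was 2.21 (SE 0.12, adjusted p = 8.3e-05 by limma). Sfrp1, the most abundant of the list, rose from 12.3 ± 2.21 to 40.1 ± 5.94 FPKM (adjusted p = 0.00065), and Dkk3, a dickkopf family gene, from 4.11 ± 0.336 to 7.87 ± 1.45 FPKM (adjusted p = 0.0067). The receptor gene Fzd7 rose from 2.42 ± 0.264 to 3.73 ± 0.091 FPKM (adjusted p = 0.0062). These 4 calls held in all 7 fits without 1 library. The co-receptor gene Lrp5, named as the remaining called gene, had an adjusted p of 0.048 that was lost in 6 of 7 such fits. Rspo1 averaged 2.85 ± 0.805 FPKM with PBS, against 3.06 ± 1.20 FPKM with sHA-X (limma adjusted p = 0.91). Wnt9b, with Wnt2 an endothelial WNT of the liver, was at most 0.147 FPKM. Sfrp4 and Wnt4 were under the filter. With no filter both were called higher (adjusted p = 0.0099 and 0.020 by limma), and Sfrp4 also on recovered reads (0.0029). Wnt4 had at most 12 reads in any library. Lgr5, a receptor for R-spondins, averaged 0.446 ± 0.159 FPKM in the PBS group and 0.128 ± 0.083 FPKM in the sHA-X group, under the filter, and was called lower on recovered reads (adjusted p = 0.034 by limma) but not with no filter (0.051).

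Of 7 tested WNT target genes of pericentral hepatocytes 1 rose, the glutamine synthetase gene Glul, which was also abundant in PBS spleens; with 9.3% of all genes called higher, this count is near the background and says nothing particular of the list. It went from 125.6 ± 11.7 to 159.2 ± 5.90 FPKM (adjusted p = 0.018 by limma). It lost the call when PBS replicate 1, sHA-X replicate 4 or both second libraries were left out (adjusted p = 0.067, 0.051 and 0.11). Axin2, the general WNT target, averaged 2.45 ± 0.364 FPKM with PBS, against 2.31 ± 0.188 FPKM with sHA-X (limma adjusted p = 0.75).

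In the IL-6 family, 4 of 11 tested genes rose. Socs3, the feedback inhibitor that STAT3 induces, had PBS levels of 7.62, 10.6 and 9.88 FPKM and sHA-X levels of 19.1, 23.4, 18.8 and 25.1 FPKM, with a difference of 1.13 (SE 0.13, adjusted p = 0.0020 by limma). Osmr, the oncostatin M receptor gene, rose from 5.88 ± 0.605 to 9.94 ± 0.659 FPKM (adjusted p = 0.0018), and both calls held in all 7 fits without 1 library. Stat3 rose from 42.7 ± 2.77 to 54.1 ± 3.35 FPKM (adjusted p = 0.017, lost without PBS replicate 1 or 2). The interleukin-11 receptor gene Il11ra1 rose from 15.0 ± 2.27 to 20.9 ± 1.93 FPKM (adjusted p = 0.025, lost when any of PBS replicates 1 and 2 and sHA-X replicates 1 and 3 was left out). Without PBS replicate 1, or without PBS replicate 2, 2 of the list rose. Il6st, which encodes gp130, was 39.2 ± 4.90 and 47.0 ± 2.45 FPKM (adjusted p = 0.085). The kinase gene Jak1, the most abundant of the list, did not pass (adjusted p = 0.64 by limma). Il6 itself was listed at 1.92, 0.177, 0.0786 and 0.823 FPKM in the sHA-X libraries. It reached 0.210 FPKM in PBS replicate 3, so the groups overlapped.

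**Figure D4:**
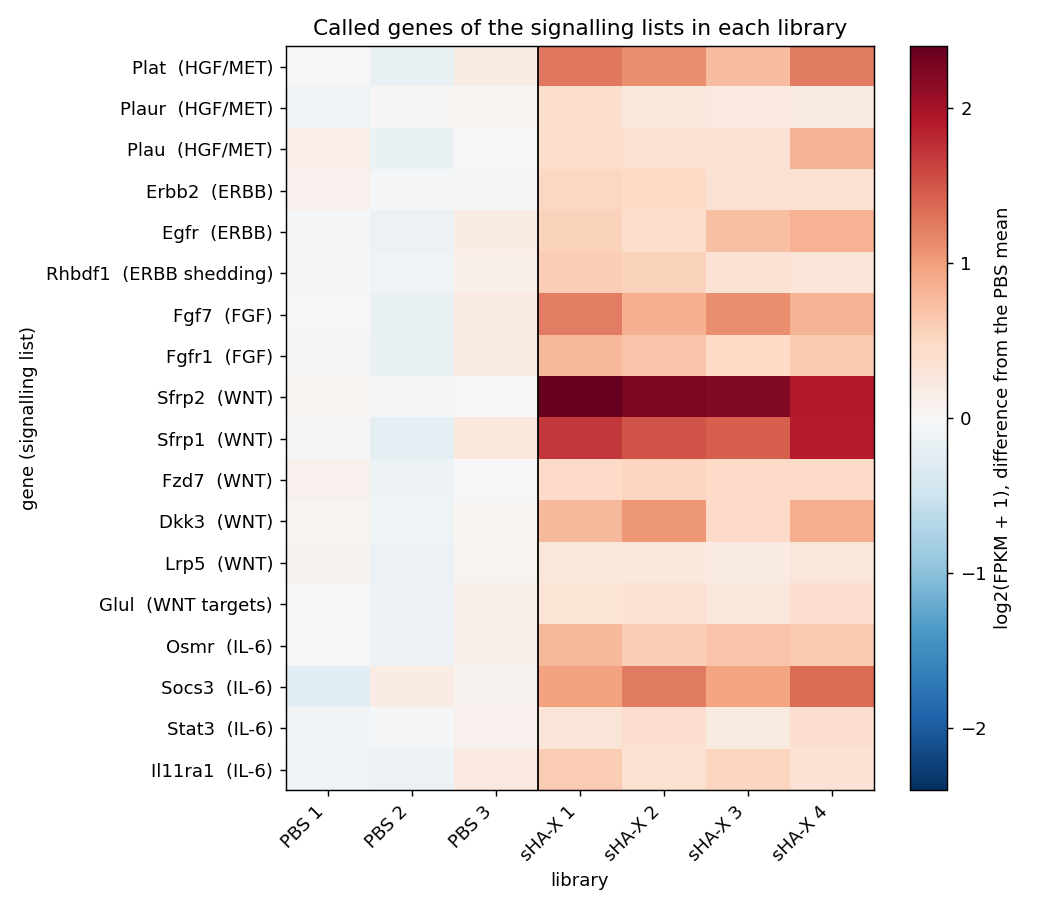
Difference of log2(FPKM + 1) from the PBS mean for the 18 called genes of the signalling lists (rows, list in parentheses) in each library (columns), red higher and blue lower. Each row is higher in the 4 sHA-X columns than in the 3 PBS columns, most for Sfrp2 and Sfrp1.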

How the data were processed

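Messenger RNA was sequenced in 7 mouse spleen libraries, 3 PBS and 4 sHA-X, and groups were read from the sample titles. Per the labels' protocols, RNA was extracted with TRIzol and libraries built with the VAHTS Universal V6 kit. Tools listed without roles in the submitters' processing notes are HISAT2, fastp, DESeq2, HTSeq and R 3.2.0, with the build mm10. The deposited table gave 1 value per gene and library with no unit in its header. The values were read as FPKM computed by the authors, since each gene had its own step of which its values were whole multiples. Reads were recovered from these steps, up to a common factor and within 0.01 read, for 16889 genes (the 704 genes seen in 1 library were left out), and the recovery was tested on simulated data. For the test, log2(FPKM + 1) entered limma 3.58.1 (trend, robust; R 4.3.3) with group as the only term, over genes with a mean of at least 1 FPKM, with Benjamini-Hochberg adjustment. The fit was tested on simulated data.

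The members and lists were chosen with earlier results of these data known. Named were all members, up to 4 called genes and the most abundant gene of each list, the 3 genes most like each called member (including those called with no filter), marker ranges and Alb; others were chosen after their values were seen. Alternatives were a pseudocount of 0.1, other filters, median-of-ratios scaling, limma without trend and robust, a replicate block, recovered reads (at least 10 on average, 0.5 added), and fits without each library or both second libraries. Coordinates and promoters are from RefSeq (GRCm38.p6), overlaps from GENCODE M21, of the files' build.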

Additional observations from a re-analysis of the deposited data

Results flagged for a closer look

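In the 4 sHA-X libraries, 1 library lay far from the other 3 (Dixon's test at its 95% critical value) for 9 of 76 values checked; chance gives about 1 in 20. No member was among them. Of genes named beside the members, Plau was 6.64 FPKM in sHA-X replicate 4 and 4.53 to 4.88 FPKM in the others. Fzd7 was 3.86 FPKM in sHA-X replicate 2 and 3.67 to 3.69 FPKM in the others. Egf was 0.463 FPKM in sHA-X replicate 2 and 0.151 to 0.202 FPKM in the others, and Adam10 was 52.3 FPKM there and 57.5 to 58.1 FPKM in the others. In sHA-X replicate 3, Adam17 was 29.0 FPKM against 31.8 to 31.9 FPKM, and Axin2 was 2.03 FPKM against 2.38 to 2.42 FPKM. The summed fibroblast and stellate cell markers reached 590.4 FPKM in sHA-X replicate 1, against 412.6 to 428.6 FPKM. In sHA-X replicate 2 the summed mesothelial markers were 43.5 FPKM, against 8.76 to 13.1 FPKM, and the summed skeletal muscle markers 215.8 FPKM, against 5.46 to 8.25 FPKM.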

How the results depend on the processing

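The number of members called higher was 1. It was 3 with no filter, 2 with a filter of 1 FPKM in 3 libraries, 3 on recovered reads and 0 with the replicate block, and 0 to 1 over the fits that left out 1 library. These filters differ in how many members they test (10, 8 and 9 against 7). With the filter of 1 FPKM in 3 libraries the calls were Egfr and Rspo3. Both passed that filter only through their sHA-X values. With the block, and without sHA-X replicate 4, 6 members were tested, since Egfr fell under the filter. The 0 there thus comes from an untested gene. With no filter, Egfr was tested in both settings and not called (adjusted p = 0.11 and 0.053 by limma). No member was called lower in any of these fits. The signalling list genes called higher, 18, were 5 with the replicate block, 11 without both second libraries and 10 to 18 with 1 library left out. Those called lower, 0, were 1 with a filter of 1 FPKM in 3 libraries, 3 with median-of-ratios scaling, 3 on recovered reads, 1 without both second libraries and 0 to 2 with 1 library left out. Over all genes, 1108 higher and 600 lower became 304 and 86 with the replicate block, 492 and 330 without both second libraries, and 488 to 1263 and 228 to 637 with 1 library left out. The cause was not tested. The labels do not say whether equal replicate numbers mark paired libraries. Same-numbered libraries deviated from their group means with r of 0.15, -0.21 and -0.29. PBS replicates 2 and 3 each correlated best with another number. Deviations within a group offset each other, so these r values cannot decide whether the block over replicates 1 to 3 pairs animals. With the block and no filter, Egfr, Rspo3 and Tgfa each had an adjusted p of 0.11 by limma, with log2 differences of 0.56, 0.57 and 0.45 against 0.63, 0.56 and 0.44 without the block. Of the named genes' log2 changes, none that was called changed direction under any alternative run; of those never called, Hbegf, Fgfr4, Adam10, Adam17, Axin2, Erbb3, Jak1, Ptpn11 and Rspo1 changed sign in at least 1. At 33 to 47 reads per PBS library for Rspo3 and 0 to 2 for Areg, counting error limits the precision of the lowest members.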
